A study of Mus musculus with 12 samples.

Results

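Neurotrophic factors are secreted proteins that support the survival, growth and maturation of neurons, and the 10 genes described here encode 8 receptors or receptor subunits for them and 2 of the factors themselves. The receptor genes were Ngfr, Ntrk2, Ntrk3, Gfra1, Gfra2, Ret, Cntfr and Lifr, and the factor genes were Bdnf and Fgf1. Every probe set whose platform symbol is one of these 10 names was taken, which gave 24 of the 22626 probe sets on the arrays that are not controls. A filter on low signal left 14 of the 24, with at least 1 for each of the 10 genes, among 13575 probe sets in all. The arrays hold 12393 genes with a single symbol, of which the 10 are a part.

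The arrays measured spinal cord RNA of 13-day-old mice of an FVB line that carries the human transgenes Tg(SMN2*delta7)4299Ahmb and Tg(SMN2)89Ahmb and the targeted mouse allele Smn1tm1Msd. The line is a model of severe spinal muscular atrophy (SMA), in which motor neurons degenerate when too little survival motor neuron protein is made. The SMA ceftriaxone group (4 mice, SMN2+/+;SmnΔ7+/+;mSmn -/-) had 200 mg/kg ceftriaxone daily by intraperitoneal injection from day 5. The SMA vehicle group (4 mice) had the same genotype and vehicle, although its labels also use the word untreated. The wildtype group (4 mice) had vehicle and the genotype SMN2+/+;SmnΔ7+/+;mSmn+/−, so it carried both human transgenes and was heterozygous for the mouse gene. Ceftriaxone, an antibiotic, is known to increase the astrocyte glutamate transporter that Slc1a2 encodes. The labels mention both whole cords and lumbar segments L1–L5, and sex is not stated in them. Each array is 1 mouse, and no group given ceftriaxone without the SMA genotype was analysed here, so the 2 SMA groups differ by treatment and the vehicle groups by genotype.

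In the spinal cord these genes divide into 4 signalling systems. Neurotrophins such as BDNF act through the Trk receptor tyrosine kinases (TrkB from Ntrk2, TrkC from Ntrk3) and through p75NTR, a death-domain receptor encoded by Ngfr that embryonic motor neurons carry and lose as they mature, and that returns after nerve injury. GDNF family ligands bind a GPI-anchored co-receptor (GFRα1 from Gfra1, GFRα2 from Gfra2), which then engages the kinase encoded by Ret. CNTF binds the receptor subunit from Cntfr, which signals with the LIF receptor from Lifr and with gp130, and FGF1 is a growth factor without a classical secretion signal that motor and sensory neurons are known to contain and that binds all FGF receptors.

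RefSeq promoter windows in GRCm38.p6, from 250 bases before to 50 after the annotated start, were held for 6 of the 10 genes (Ngfr, Ntrk2, Gfra1, Cntfr, Lifr and Bdnf). Ngfr has 1 window in the table and Lifr has 2, of which the first is shown. Ngfr and Lifr are shown because they moved in opposite directions in both main comparisons below. Each sequence is written 5′ to 3′ on the strand of the gene, Ngfr at chr11:95587649-95587948 on the minus strand and Lifr at chr15:7129322-7129621 on the plus strand. Capitals mark the GC box GGGCGG or its reverse complement, and GCGGGGGCG, the motif known for the EGR family of transcription factors.
Ngfr: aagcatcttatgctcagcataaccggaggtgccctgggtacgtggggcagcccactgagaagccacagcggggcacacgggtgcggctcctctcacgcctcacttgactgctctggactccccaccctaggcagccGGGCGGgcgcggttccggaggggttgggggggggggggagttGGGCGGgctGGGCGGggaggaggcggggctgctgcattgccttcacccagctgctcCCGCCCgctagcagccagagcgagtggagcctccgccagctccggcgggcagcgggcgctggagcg
Lifr: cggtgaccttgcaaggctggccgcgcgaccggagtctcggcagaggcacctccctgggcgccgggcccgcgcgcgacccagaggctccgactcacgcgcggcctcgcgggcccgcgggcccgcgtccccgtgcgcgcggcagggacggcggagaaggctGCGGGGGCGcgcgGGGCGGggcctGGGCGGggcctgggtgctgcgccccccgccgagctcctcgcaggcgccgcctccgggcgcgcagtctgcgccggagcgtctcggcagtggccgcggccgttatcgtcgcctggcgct
The Ngfr window held 4 GC boxes, and the Lifr window shown held 2 GC boxes and 1 GCGGGGGCG. The other Lifr window, at chr15:7140292-7140591, held 0 of either. Both strands were searched, and the same search over all 32851 promoter windows found GGGCGG in 35.7% and GCGGGGGCG in 2.91%. TGACGTCA, the cyclic AMP response element, was searched too, was in 1.79% of windows and in neither of these sequences. The matches describe letters in the windows only.

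The targeted gene separated the genotypes: Smn1 signal was 3.3 to 15.8 in SMA ceftriaxone, 3.6 to 5.7 in SMA vehicle and 263.4 to 414.3 in wildtype cords. Wildtype array 2 stood apart, with 0.924 to 0.93 as its correlation with the other wildtype arrays against 0.986 to 0.989 among those, and with a signal of 7862.5 for the lymphocyte recombinase gene Rag1. It was the lowest of the 4 wildtype arrays for 9 of the 14 member probe sets. Xist, the RNA that silences an X chromosome in female cells, had 1688.5 or more on all 4 SMA ceftriaxone arrays, SMA vehicle arrays 1 and 4 and wildtype array 3, and 74.2 or less on the others, so the sexes were not balanced between the groups. Summed markers of mature oligodendrocytes (5 genes, Mbp among them) ran from 59832 to 67126.3 in SMA ceftriaxone, 14834.6 to 31747.5 in SMA vehicle and 51402.6 to 83272.9 in wildtype cords. Those of immature neurons (5 genes, Dcx and Gap43 among them) ran from 10399.9 to 14283.1, from 20751.3 to 28477.1 and from 9717.2 to 11543.1 in the same groups, and those of skeletal muscle from 251.9 to 695.6, from 2153.3 to 5473.6 and from 518 to 1462.3. Pan-neuronal marker sums overlapped in all groups (42299.1 to 47560.7, 43017.1 to 47206.8 and 33678.2 to 50436.9), although of the 6 genes 3 were higher (Syt1 by 0.99, Rbfox3 by 0.67 and Stmn2 by 0.55) and 1 lower (Eno2, -0.31) in SMA vehicle against wildtype, and 1 was higher and 3 lower after ceftriaxone. In whole tissue, fewer cells of a type and less RNA per cell cannot be told apart, and the part of these shifts in the results below was not tested.

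**Figure D1:**
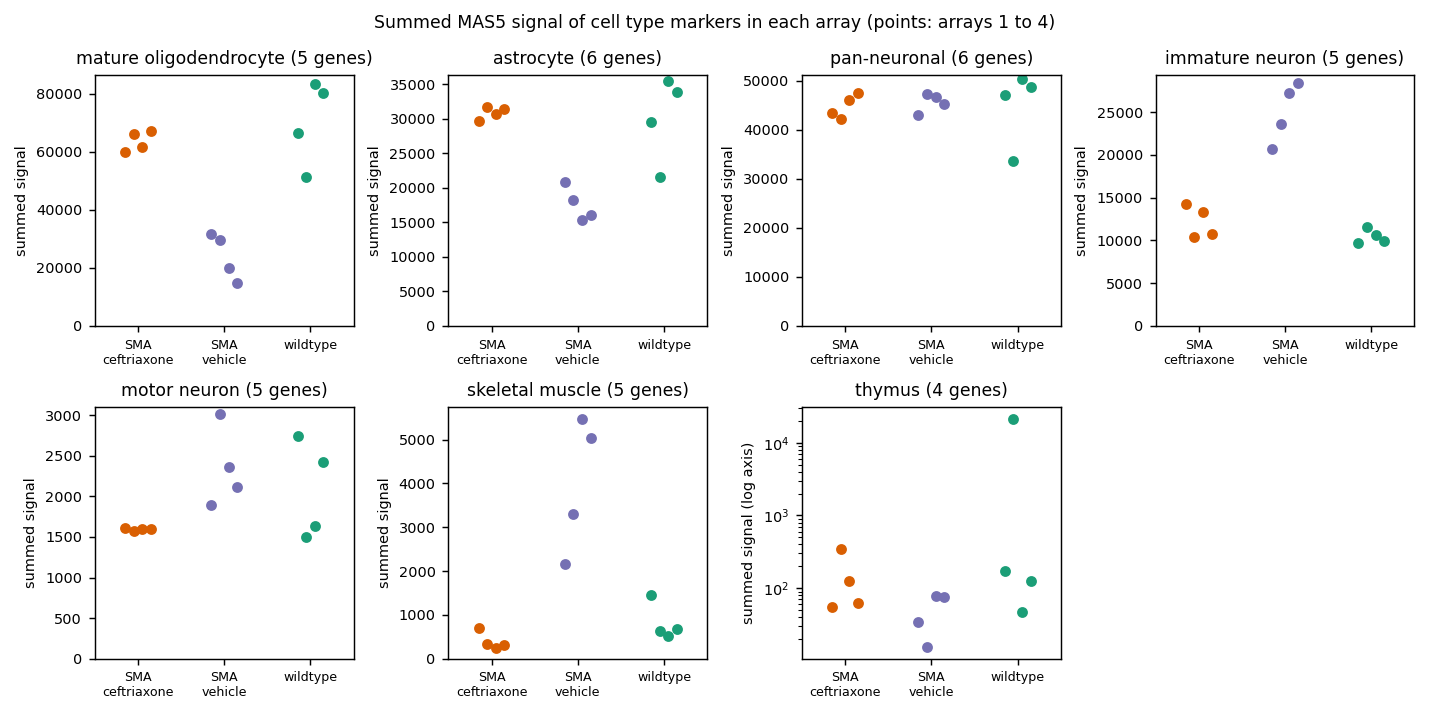
Summed signal of marker genes per array for SMA ceftriaxone, SMA vehicle and wildtype cords, a panel per cell type and a point per array, on linear axes from 0 except a log axis for thymus. SMA vehicle arrays lie below both other groups for oligodendrocyte markers and above both for immature neuron and skeletal muscle markers, and wildtype array 2 lies far above all others for thymus (21382.4).

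SMA vehicle cords were set against wildtype cords to ask what the loss of mouse Smn did at 13 days. Of the 14 member probe sets, 8 were higher and 3 lower in SMA vehicle, which is 78.6% called against 47.2% of all 13575 (24.9% higher, 22.3% lower). The higher ones were 1 of Ngfr, both of Ntrk3, 1 of 2 of Gfra1, both of Gfra2 and those of Ret and Bdnf, and the lower ones were both of Fgf1 and the 1 of Lifr. The kept Gfra2 probe sets 1423007_a_at and 1425579_at had wildtype signals of at most 104.9 and 113.6, under the lowest geometric mean kept (125). They passed the filter through the SMA vehicle arrays, where they are high, although 1425579_at also had 127 to 136.6 in SMA ceftriaxone. Fgf1 1450869_at had at most 97.4 in SMA vehicle and passed through the wildtype and SMA ceftriaxone arrays, where it is high. The filter thus favoured the place of these 3 probe sets in the counts. The groups did not overlap for 11 of the 14, against a background of 42.5%. Without wildtype array 2, 7 were higher and 3 lower, where 58.5% of all probe sets were called. When ceftriaxone-treated SMA cords were set against SMA vehicle cords, 3 of the 14 were higher and 5 lower (57.1% called, against 35.9% of all probe sets, 18.3% higher and 17.7% lower). The higher ones were both of Fgf1 and that of Lifr, and the lower ones were 1 of Ngfr, 1 of 2 of Ntrk3, both of Gfra2 and that of Ret. The groups did not overlap for 8 of the 14, against 45.3% of all. Both comparisons share the SMA vehicle arrays, so they are not independent of each other. Probe sets of the same gene are not independent either. By the brightest probe set of each gene, 70% and 60% of the 10 genes were called, against 49.1% and 37.7% of all 8004. The members were chosen with earlier results of these data known, so these shares are not read as a trait of the genes.

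**Figure D2:**
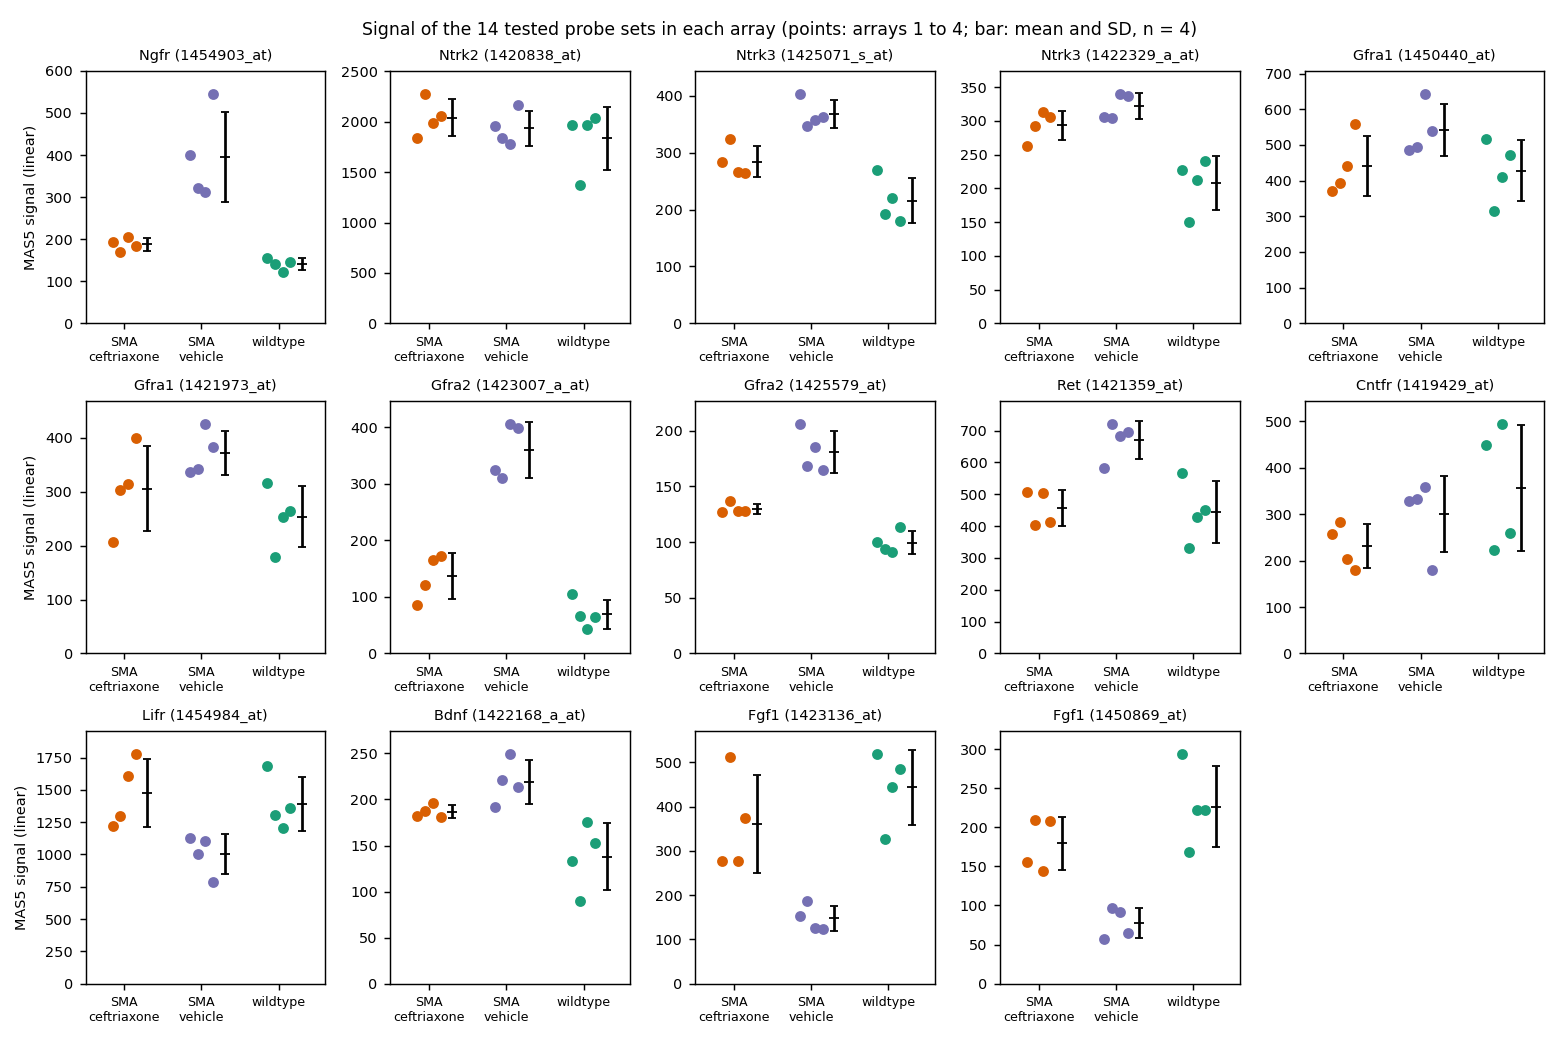
MAS5 signal (linear axis from 0) of the 14 kept probe sets, a panel each, with a point per array and a bar for the mean and SD (n = 4), for SMA ceftriaxone, SMA vehicle and wildtype cords. SMA vehicle arrays sit above both other groups for Ngfr, Gfra2 and Ret and below both for Fgf1 and Lifr, while all groups overlap for Ntrk2 and Cntfr.

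Ngfr, the gene of p75NTR, had the largest rise of the 3 neurotrophin receptor genes in SMA vehicle cords. Its brightest probe set (1454903_at) had signals of 194.2, 169.1, 205.6 and 183.5 in SMA ceftriaxone, 400.5, 321.9, 313.1 and 546.0 in SMA vehicle, and 154.6, 140.3, 121.6 and 146.2 in wildtype cords. The 3 groups did not overlap, with SMA vehicle highest and SMA ceftriaxone between it and wildtype. The means were 188 ± 15.6, 395 ± 108 and 141 ± 14 (SD, n = 4 each). On the log2(signal + 16) scale Ngfr rose by 1.36 ± 0.16 (SE) in SMA vehicle against wildtype (limma adjusted p = 1.86e-05) and fell by 0.98 ± 0.16 in SMA ceftriaxone against SMA vehicle (limma adjusted p = 0.000501). The dimmer 1450177_at, below the signal filter, had 6.3 to 33.3 in SMA ceftriaxone, 64.7 to 76.2 in SMA vehicle and 3.7 to 20.4 in wildtype cords. It gave 1.80 and -1.20 for the same comparisons (adjusted p = 0.000217 and 0.00581 in a fit over all 22626 probe sets). The dimmest, 1421241_at, reached 36.6 at most and gave 0.59 and -0.36 (adjusted p = 0.0448 and 0.247 in that fit). The first of these calls stayed in only 2 of the 12 fits with 1 array left out.

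Ntrk2, which encodes the BDNF receptor TrkB, showed no such separation. Its kept probe set, 1420838_at, had signals of 1837.6, 2279.2, 1989.4 and 2055.7 in SMA ceftriaxone, 1954.4, 1840.7, 1776.6 and 2170.2 in SMA vehicle, and 1966.2, 1369.2, 1964.2 and 2036.5 in wildtype cords. All groups overlapped, and the lowest array, wildtype array 2, lay apart from the rest of its group. The log2 difference was 0.09 between SMA vehicle and wildtype, with a 95% interval of -0.17 to 0.35 (limma adjusted p = 0.567), and 0.08 between SMA ceftriaxone and SMA vehicle, with an interval of -0.19 to 0.34 (adjusted p = 0.659). A rise the size of that of Ngfr lies outside these intervals. The second Ntrk2 probe set, 1420837_at, lay below the filter with signals of 24.9 to 118.6 and gave 0.76 for SMA vehicle against wildtype (adjusted p = 0.0796).

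Ntrk3, the gene of the neurotrophin-3 receptor TrkC, rose in SMA vehicle cords on both kept probe sets. 1425071_s_at had 283.2, 323.3, 265.6 and 264.8 in SMA ceftriaxone, 404.0, 347.3, 357.8 and 362.9 in SMA vehicle, and 269.8, 191.4, 220.3 and 180.5 in wildtype cords. Every SMA vehicle array was above every array of the other groups, and SMA ceftriaxone overlapped with wildtype through wildtype array 1. Against wildtype the rise was 0.74 ± 0.12 (adjusted p = 0.000294) on this probe set and 0.61 ± 0.13 (adjusted p = 0.00172) on 1422329_a_at. Below the filter, 1425070_at gave 0.54 against wildtype and -0.45 after ceftriaxone (adjusted p = 0.0297 and 0.0815 in the fit over all probe sets). The dimmest, 1426003_at, gave 0.33 and 0.06 (adjusted p = 0.429 and 0.912). After ceftriaxone, 1425071_s_at fell by 0.36 ± 0.12 (adjusted p = 0.038), whereas 1422329_a_at differed by -0.13 (adjusted p = 0.472), with 263.3 to 312.7 in SMA ceftriaxone and 304 to 340.6 in SMA vehicle cords. The fall on 1425071_s_at ended as a call without SMA vehicle array 1, 2, 3 or 4 (adjusted p = 0.0974, 0.0539, 0.0697 and 0.0733), without SMA ceftriaxone array 1, 3 or 4 (0.0651, 0.0912 and 0.0931), with no filter (0.06) and with Xist signal as a covariate (0.061).

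Bdnf, which encodes the TrkB ligand, rose in SMA vehicle cords. 1422168_a_at had 182.0, 187.1, 196.7 and 181.2 in SMA ceftriaxone, 192.2, 221.4, 249.4 and 213.2 in SMA vehicle, and 133.5, 89.9, 175.3 and 153.1 in wildtype cords. No SMA vehicle array fell among the wildtype arrays, while SMA ceftriaxone arrays lay close under SMA vehicle, with an overlap at 196.7 and 192.2. The log2 rise against wildtype was 0.64 ± 0.16 (limma adjusted p = 0.00549), 0.47 without wildtype array 2 (adjusted p = 0.00386), and the difference of SMA ceftriaxone from SMA vehicle was -0.21 (adjusted p = 0.339). The dimmer 1422169_a_at gave 0.15 and 0.30 (adjusted p = 0.649 and 0.366).

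Gfra2, the co-receptor gene for neurturin, had the largest rise among the 14 member probe sets. 1423007_a_at had 86.3, 121.6, 166.0 and 172.7 in SMA ceftriaxone, 324.0, 310.4, 406.2 and 399.1 in SMA vehicle, and 104.9, 66.3, 42.5 and 64.4 in wildtype cords. SMA vehicle stood clear of both other groups, and SMA ceftriaxone array 1 lay below wildtype array 1. The rise was 2.17 ± 0.23 on the log2 scale (limma adjusted p = 1.03e-05), and ceftriaxone-treated SMA cords fell by 1.33 ± 0.23 relative to SMA vehicle (adjusted p = 0.000806). A second probe set, 1425579_at, had 127 to 136.6 in SMA ceftriaxone, 164.9 to 206.3 in SMA vehicle and 91.2 to 113.6 in wildtype cords, with no overlap between any of the groups. It rose by 0.77 (adjusted p = 0.000151) and fell by 0.43 after ceftriaxone (adjusted p = 0.0121). The third, 1425578_a_at, was below the filter and gave 1.63 (adjusted p = 1e-04) and -0.55 (adjusted p = 0.0873). Across the 12 arrays the 3 Gfra2 probe sets correlated at 0.907 to 0.931, a description over arrays that share the group differences.

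Ret, the kinase that the GFRα co-receptors engage, rose and fell less. Its probe set 1421359_at had 507.3, 403.3, 504.0 and 411.8 in SMA ceftriaxone, 583.6, 721.1, 683.4 and 695.4 in SMA vehicle, and 567.8, 330.6, 429.9 and 450.9 in wildtype cords. SMA vehicle arrays were above all others, the closest pair being SMA vehicle array 1 and wildtype array 1, and SMA ceftriaxone lay inside the wildtype range. The rise against wildtype was 0.60 ± 0.14 (limma adjusted p = 0.00396) and the fall after ceftriaxone 0.54 ± 0.14 (adjusted p = 0.0102).

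Gfra1, the co-receptor gene for GDNF, was less clear. 1421973_at had 205.9, 303.3, 314.2 and 399.2 in SMA ceftriaxone, 337.2, 342.7, 425.7 and 382.9 in SMA vehicle, and 316.2, 178.9, 253.4 and 263.8 in wildtype cords. SMA vehicle lay above wildtype on every array, with a rise of 0.55 ± 0.19 (adjusted p = 0.0299), while SMA ceftriaxone spread across both. The call ended without wildtype array 2 (0.40, adjusted p = 0.0613), wildtype array 3 (0.0531) or SMA vehicle array 3 or 4 (0.0849 and 0.0656). The brighter 1450440_at had 370.9 to 557.3 in SMA ceftriaxone, 486.1 to 643.9 in SMA vehicle and 316.1 to 515.5 in wildtype cords. Its differences were 0.34 against wildtype (adjusted p = 0.0966) and -0.29 after ceftriaxone (adjusted p = 0.169), and the first was called without wildtype array 1 (0.0489).

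Lifr, the LIF receptor subunit that CNTF signalling also uses, went the other way. 1454984_at had 1220.1, 1295.0, 1603.4 and 1777.3 in SMA ceftriaxone, 1127.8, 1004.2, 1102.1 and 788.2 in SMA vehicle, and 1688.3, 1305.3, 1205.7 and 1358.7 in wildtype cords. All 4 SMA vehicle arrays were below all arrays of the other groups, and SMA ceftriaxone and wildtype overlapped. Lifr fell by 0.46 ± 0.15 in SMA vehicle against wildtype (limma adjusted p = 0.0193) and rose by 0.54 ± 0.15 in SMA ceftriaxone against SMA vehicle (adjusted p = 0.0116). The first call ended without wildtype array 1 (adjusted p = 0.0617) or SMA vehicle array 4 (0.0667). The dim probe sets 1425107_a_at and 1450207_at gave 0.39 and -0.27 against wildtype (adjusted p = 0.0945 and 0.415). After ceftriaxone they gave -0.03 and -0.16 (adjusted p = 0.939 and 0.68), so the Lifr probe sets did not run together.

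Cntfr, the CNTF-binding subunit, varied widely within the groups. 1419429_at had 256.7, 283.9, 203.3 and 180.8 in SMA ceftriaxone, 328.7, 332.8, 358.4 and 178.9 in SMA vehicle, and 448.8, 222.2, 494.6 and 258.7 in wildtype cords. All 3 groups overlapped, and the lowest array of all was SMA vehicle array 4. The differences were -0.21 (adjusted p = 0.553) and -0.33 (adjusted p = 0.361), with a standard error of 0.27 for each. On 1431663_a_at, below the filter, SMA ceftriaxone differed from SMA vehicle by -1.10 (adjusted p = 0.0671).

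Fgf1 was the member with the largest fall in SMA vehicle cords. Both its probe sets passed the filter, 1450869_at through the arrays of the other groups. 1423136_at had 278.4, 512.0, 277.0 and 374.3 in SMA ceftriaxone, 153.1, 186.6, 125.8 and 124.2 in SMA vehicle, and 519.2, 326.6, 444.0 and 484.5 in wildtype cords. SMA vehicle lay below every array of the other groups, which overlapped with each other. Its log2 signal fell by 1.49 ± 0.20 in SMA vehicle against wildtype (limma adjusted p = 6.38e-05) and rose by 1.18 ± 0.20 in SMA ceftriaxone against SMA vehicle (adjusted p = 0.000748). 1450869_at, with 144.2 to 209.7 in SMA ceftriaxone, 57.5 to 97.4 in SMA vehicle and 167.9 to 293.7 in wildtype cords, fell by 1.37 (adjusted p = 9.24e-05) and rose by 1.06 (adjusted p = 0.00115). Summed oligodendrocyte markers were low in the same 4 SMA vehicle cords, and the part of that in Fgf1 was not tested.

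**Figure D3:**
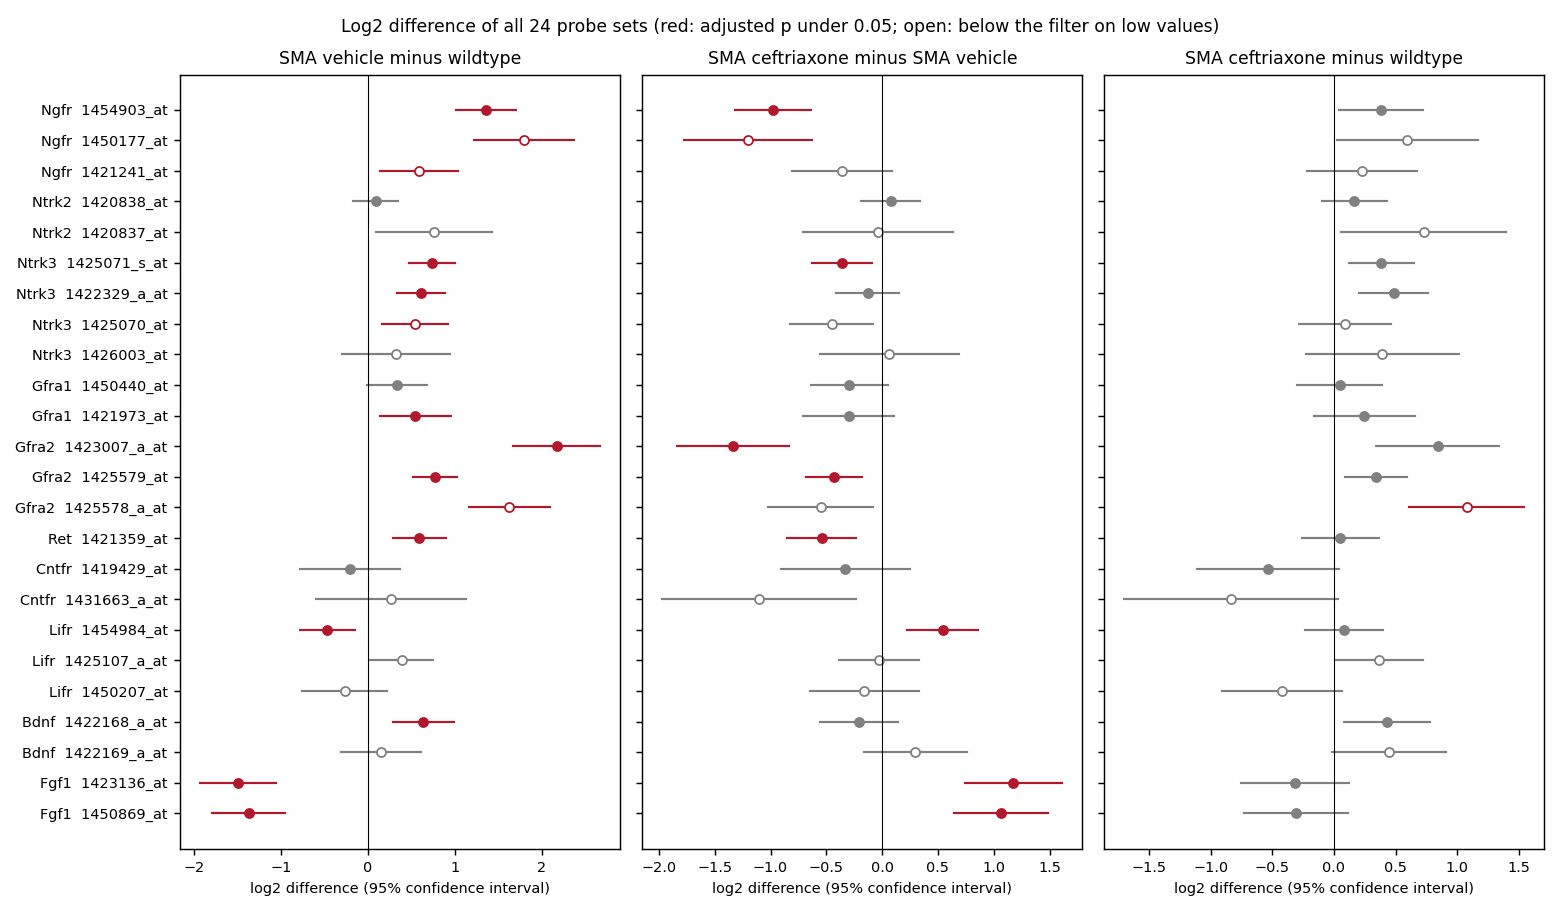
Log2 difference of all 24 member probe sets with 95% intervals (red where the adjusted p passed 0.05, open points below the signal filter), for SMA vehicle against wildtype, SMA ceftriaxone against SMA vehicle and SMA ceftriaxone against wildtype. Among kept probe sets, Gfra2 (2.17) and Ngfr (1.36) lie farthest to the right and Fgf1 (-1.49 and -1.37) farthest to the left for SMA vehicle against wildtype.

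SMA ceftriaxone cords were also set against wildtype cords. None of the 14 member probe sets was called by limma (0 of 14, against 4.21% of all probe sets), and 6 of the 14 had an unadjusted p under 0.05, against 20.1% of all probe sets. The smallest adjusted p-values were 0.0551 for Ntrk3 1422329_a_at (0.49) and 0.061 for Gfra2 1423007_a_at (0.84), both higher in SMA ceftriaxone. These calls depended on single arrays: without wildtype array 2 both passed (0.0326 and 0.0488), and without wildtype array 1 the Gfra2 probe set passed (0.0238) together with Ntrk3 1425071_s_at (0.0302). Gfra2 passed as well without SMA ceftriaxone array 1 (0.0336), and its probe set below the filter, 1425578_a_at, was 1.08 higher in SMA ceftriaxone (adjusted p = 0.0263 in the fit over all probe sets). All 4 SMA ceftriaxone arrays lay above all 4 wildtype arrays for Ngfr 1454903_at, Ntrk3 1422329_a_at, Gfra2 1425579_at and Bdnf 1422168_a_at (4 of 14, against 11.6% of all probe sets without overlap). The group mean of SMA ceftriaxone lay between those of the other groups for 11 of the 14. The share of all probe sets with this order was not computed, so the count is not read as a trait of these genes. A p that misses the threshold does not show that SMA ceftriaxone and wildtype cords were alike: Fgf1 1423136_at differed by -0.31 ± 0.20 (adjusted p = 0.433) and Ngfr by 0.38 ± 0.16 (adjusted p = 0.192).

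The sex markers moved with these groups. With Xist signal as a covariate, 11 of 14 member probe sets were called between SMA vehicle and wildtype (45.9% of all probe sets). Between SMA ceftriaxone and SMA vehicle 7 of 14 were called (26.3%). Among arrays of low Xist signal only (2 SMA vehicle and 3 wildtype), 4 of 14 were called (16% of all probe sets), Ngfr (1.03, adjusted p = 0.0148), Gfra2 1423007_a_at (2.0, adjusted p = 0.0102) and both Fgf1 probe sets (-1.41 and -1.11, adjusted p = 0.0218 and 0.0382), in a fit that has fewer arrays. Ret, Lifr, Bdnf, Ntrk3, Gfra1 and Gfra2 1425579_at were not called there. Among arrays of high Xist signal (4 SMA ceftriaxone and 2 SMA vehicle), 8 of 14 were called, 3 higher and 5 lower, against 32.9% of all probe sets.

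**Figure D4:**
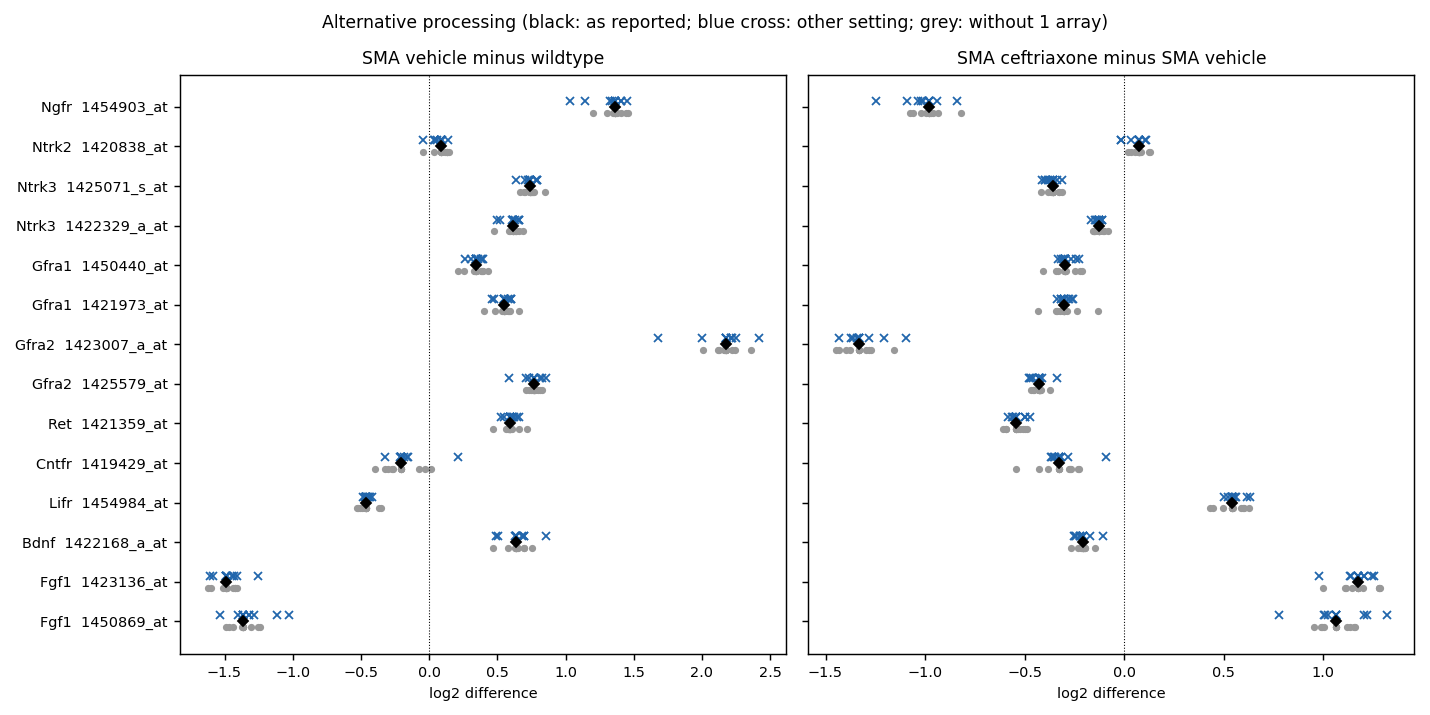
Log2 difference of the kept member probe sets as reported (black), under each other setting (blue crosses) and with 1 array left out (grey), for SMA vehicle against wildtype and SMA ceftriaxone against SMA vehicle. The ranges of all genes but Ntrk2 and Cntfr stay on one side of 0 in both comparisons. That of Ntrk2 crosses 0 in both, and that of Cntfr for SMA vehicle against wildtype.

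The pathways around the members were described with 5 gene lists, each gene by its brightest probe set, and the members themselves are not in them. Over all 8004 genes, 49.1% were called between SMA vehicle and wildtype and 37.7% between SMA ceftriaxone and SMA vehicle. Of 14 neurotrophin signalling genes tested (22 listed), 7 were higher, 4 lower and 3 not called in SMA vehicle against wildtype, with a median difference of 0.32 beside 0.01 over all genes. Lingo1, a partner of p75NTR in the Nogo receptor complex, had mean signals of 754 ± 110 in SMA ceftriaxone, 1224 ± 119 in SMA vehicle and 589.8 ± 86.3 in wildtype cords (SD, n = 4 each). It rose by 1.04 (adjusted p = 2.68e-05) and fell by 0.70 after ceftriaxone (adjusted p = 0.00111). The Nogo receptor gene Rtn4r rose by 0.96 (adjusted p = 0.000122) and the sortilin-related receptor gene Sorcs3 by 0.74 (adjusted p = 0.000114), and both were lower after ceftriaxone (-0.53 and -0.51, adjusted p = 0.011 and 0.00278). Gab1, a docking adaptor downstream of receptor tyrosine kinases, ran against them, with -1.09 (adjusted p = 9.11e-05) and 1.05 (adjusted p = 0.000285). After ceftriaxone 3 of the 14 were higher, 6 lower and 5 not called.

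Of 7 GDNF family genes tested (14 listed), 4 were higher, 1 lower and 2 not called in SMA vehicle against wildtype, with a median of 0.49. Ncam1, the neural cell adhesion molecule that can bind GDNF with GFRα1, had mean signals of 2511 ± 339 in SMA ceftriaxone, 4913 ± 252 in SMA vehicle and 1531 ± 236 in wildtype cords. It rose by 1.68 (adjusted p = 6.65e-07), fell by 0.97 after ceftriaxone (adjusted p = 7.77e-05) and stayed 0.71 higher in SMA ceftriaxone than in wildtype cords (adjusted p = 0.00609). The Ret adaptor gene Dok4 rose by 1.26 (adjusted p = 2.49e-05) and fell by 1.0 after ceftriaxone (adjusted p = 0.000334). Sdc3, the syndecan that binds GDNF, rose by 0.97 (adjusted p = 7.49e-05) and fell by 0.70 (adjusted p = 0.00149). Grb10, an adaptor of receptor tyrosine kinases, had 0.02 against wildtype (adjusted p = 0.907) and rose by 0.42 after ceftriaxone (adjusted p = 0.0088). It was 0.43 higher in SMA ceftriaxone than in wildtype cords (adjusted p = 0.0397). After ceftriaxone 2 of the 7 were higher, 3 lower and 2 not called, the other higher one being the neurturin gene Nrtn (0.48, adjusted p = 0.0471), which was also the 1 lower in SMA vehicle (-0.51, adjusted p = 0.0281).

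Of 7 genes of CNTF and LIF signalling (14 listed), 1 was higher, 3 lower and 3 not called in SMA vehicle against wildtype, and 1 was higher, 1 lower and 5 not called after ceftriaxone. Il6st, the gene of the shared subunit gp130, fell by 0.49 (adjusted p = 0.000383) and had 0.19 after ceftriaxone (adjusted p = 0.0963). The kinase genes differed: Jak2 had 0.02 (adjusted p = 0.925) and -0.07 after ceftriaxone (adjusted p = 0.709), Tyk2 fell by 0.47 (adjusted p = 0.00853) and rose by 0.36 after ceftriaxone (adjusted p = 0.0436), whereas Jak1 rose by 0.23 (adjusted p = 0.0471) and fell by 0.49 (adjusted p = 0.00112). Stat3, the transcription factor activated below them, fell by 0.28 (adjusted p = 0.0184) and had 0.15 after ceftriaxone (adjusted p = 0.187).

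Of 6 FGF ligand and receptor genes (15 listed), 2 were lower and 4 not called in SMA vehicle against wildtype, and 2 were higher, 1 lower and 3 not called after ceftriaxone. The receptor gene Fgfr2 had mean signals of 741 ± 50.3 in SMA ceftriaxone, 474 ± 70.3 in SMA vehicle and 801 ± 137 in wildtype cords, a fall of 0.73 (adjusted p = 0.00057) and a rise of 0.63 after ceftriaxone (adjusted p = 0.00257). Fgfrl1, a receptor without a kinase domain, fell by 0.99 (adjusted p = 0.00213). Fibp, the 1 lower after ceftriaxone, fell by 0.45 there (adjusted p = 0.0229) and had 0.30 against wildtype (adjusted p = 0.0971). Fgfr3, a receptor that astrocytes are known to express, had -0.04 against wildtype (adjusted p = 0.832) and rose by 0.61 after ceftriaxone (adjusted p = 0.00388). In SMA ceftriaxone it was 0.57 higher than in wildtype cords (adjusted p = 0.035). Astrocyte marker sums ran from 29700.4 to 31640.9 in SMA ceftriaxone, 15282.4 to 20761.8 in SMA vehicle and 21537.2 to 35382.5 in wildtype cords. Of the 6 astrocyte genes, 4 were lower and 2 higher in SMA vehicle against wildtype, the higher ones being Slc1a3 (0.83, adjusted p = 0.00156) and Aldh1l1 (0.55, adjusted p = 0.0022), which had 0.01 and 0.06 after ceftriaxone (adjusted p = 0.98 and 0.711).

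Genes that respond to ERK, the kinase below Trk, Ret and FGF receptors, were split. Of 9 tested (14 listed), 2 were higher, 2 lower and 5 not called in SMA vehicle against wildtype, and 5 were higher, 1 lower and 3 not called after ceftriaxone. The immediate early gene Egr1 fell by 1.05 (adjusted p = 0.000242) and rose by 0.77 after ceftriaxone (adjusted p = 0.00376), and Dusp6, the phosphatase that inactivates ERK, fell by 0.54 (adjusted p = 0.00152) and rose by 0.55 (adjusted p = 0.00212). Spred1, an inhibitor of the pathway, had -0.03 against wildtype (adjusted p = 0.778) and rose by 0.31 after ceftriaxone (adjusted p = 0.00477). Its level in SMA ceftriaxone was 0.29 above that in wildtype cords (adjusted p = 0.0445). Etv4, an ETS factor that GDNF is known to induce in motor neurons, rose by 1.89 (adjusted p = 0.00468) and fell by 1.36 (adjusted p = 0.0366), with a mean signal of 309 ± 93.4 in SMA vehicle and 89.1 ± 74.7 in wildtype cords.

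**Figure D5:**
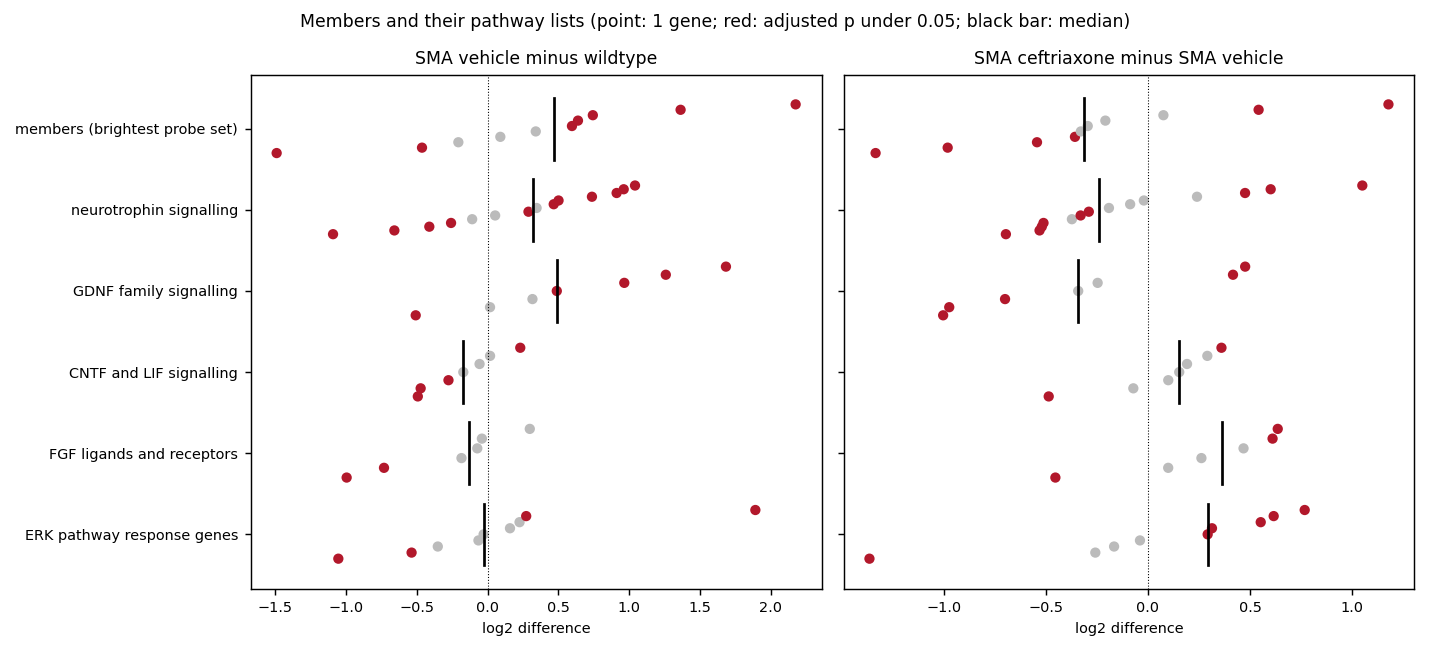
Log2 difference of each tested gene in the 5 pathway lists and of each member by its brightest probe set (red where the adjusted p passed 0.05, black bar at the median), for SMA vehicle against wildtype and SMA ceftriaxone against SMA vehicle. Neurotrophin and GDNF family genes lie mostly right of 0 in the first comparison (medians 0.32 and 0.49) and left of 0 in the second (medians -0.24 and -0.34).

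The genes whose log2 signal ran most like that of each member over the 12 arrays were picked by Pearson correlation among 8003 other genes, as a description, since arrays share the group differences. Kcna1, a potassium channel of myelinated axons, ran most like Fgf1 (r = 0.983, and 0.922 after group means were removed), and Kcnmb4, a subunit of calcium-activated potassium channels, most like Ngfr (r = 0.978, and 0.788). Mtmr7 was nearest to Ret (r = 0.987, and 0.959) and Zranb1 to Gfra2 (r = 0.978, and 0.813). Bdnf ran most like the neuronal membrane protein gene Gpm6a (r = 0.963) and the GABA-synthesising enzyme gene Gad1 (r = 0.961), and Ntrk3 like the glutamate receptor delta subunit gene Grid1 (r = 0.963). Gfra1 had Nenf (r = 0.919), Lifr had Trabd (r = 0.906), Ntrk2 had Aplp2 (r = 0.893) and Cntfr had Gpr89 (r = 0.858).

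Markers of motor neurons were at 1571.7 to 1614.6 in SMA ceftriaxone, 1896.5 to 3020.4 in SMA vehicle and 1495.8 to 2742.1 in wildtype cords (5 genes summed), and 0 of the 3 that passed the filter were called by limma between SMA vehicle and wildtype, also at an unadjusted p under 0.05. After ceftriaxone, 1 of the 3, Prph, fell by 0.64 (adjusted p = 0.0299). Isl1, a motor neuron transcription factor below the filter, rose by 1.03 in SMA vehicle (adjusted p = 0.00235) and fell by 1.06 after ceftriaxone (adjusted p = 0.00346) in the fit over all probe sets. Mnx1, the other listed gene below the filter, had 0.07 and -0.18 in the same fit (adjusted p = 0.834 and 0.592). The 3 sensory ganglion genes with a probe set were dim, and none passed the filter, with sums of 22.4 to 117.9, 51.8 to 133 and 39.7 to 79.8 in the same group order, although Ngfr, Ntrk3, Ret and Gfra2 are also known from sensory neurons. Of the 4 Schwann cell genes listed, 1 had a probe set here, Egr2, with 44 to 73.6, 22.1 to 73.6 and 42.5 to 212.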

How the data were processed

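Spinal cord RNA of 12 mice in 3 groups of 4 was measured on 12 Affymetrix arrays, as tissue fixed by perfusion and cRNA made with an amplification step, per the labels' protocols. Each deposited value is a probe set's linear signal intensity, made with MAS5 according to the submitters' processing notes. The authors had scaled each array, since the mean signal without the top and bottom 2% was 700.2 on every array. Detection calls were not used.

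Of 22690 probe sets, 64 controls were removed. Symbols came from the platform annotation of 2016 (20393 probe sets with 1 symbol, 691 with several, 1606 with none) and were updated by gene identifier for 20364. The offset 16 was added before log2, so differences understate the change of dim genes. Probe sets above the 40th percentile of mean log2 value were kept (13575, geometric mean signal at least 125). The fit was a mean per group over all arrays, by limma 3.58.1 (R 4.3.3, intensity trend, 9 residual degrees of freedom). P-values are two-sided and Benjamini-Hochberg adjusted over the kept probe sets, or over all 22626 for members below the filter, with a threshold of 0.05. The p-values set each group difference against the spread between mice within the groups. The labels do not mention litters, so litters could not be taken into account. Having 4 arrays per group limits the precision (median standard error 0.12). The fits were tested on simulated data.

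The members, pathway lists, marker lists and motifs were chosen with earlier results of these data known. The named pathway genes were the 4 of smallest p among those called in each list over the main comparisons, and the likeness genes the 3 of highest correlation, of which 1 or 2 are named. Egr2, Rag1, Smn1, Xist and other marker genes are named as checks, and Nrtn and Jak2 after their values were seen. Some genes of the lists, such as Ntf3, Frs2, Dok6, Cntf, Osm, Fgfbp3 and Etv1, were not analysed here. Alternatives were offsets 1 and 64, quantile normalization, median centring, no filter, the 60th percentile, no intensity trend, array weights, only the groups compared, a replicate block, Xist as a covariate and leaving out each array. Fits to low-Xist or high-Xist arrays alone were added after seeing the data.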

Additional observations from a re-analysis of the deposited data

Results flagged for a closer look

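In 5 of the 72 groups of 4 arrays formed by the member probe sets, a single array lay far from the other 3, where chance gives about 1 in 20. SMA ceftriaxone array 2 had 136.6 on Gfra2 1425579_at, with 128.3 as the nearest of its group, a distance that is small beside the gap to SMA vehicle. SMA ceftriaxone array 4 had 46.3 on Cntfr 1431663_a_at, below the signal filter, with 8.4 as the nearest. SMA vehicle array 4 had 178.9 on Cntfr 1419429_at, with 328.7 as the nearest. SMA vehicle array 3 had 36.6 on Ngfr 1421241_at, also below the filter, with 13.6 as the nearest. Wildtype array 2, the array with thymus transcripts, had 1369.2 on Ntrk2 1420838_at, with 1964.2 as the nearest.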

How the results depend on the processing

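Over the alternatives and single arrays left out, the kept member probe sets had 326 values between SMA vehicle and wildtype. Of these, 312 stayed on their side of the threshold, 13 lost the call and 1 gained it. For SMA ceftriaxone against SMA vehicle these were 316 of 326, 9 and 1, and for SMA ceftriaxone against wildtype 303 of 312 stayed and 9 gained a call. No called value changed sign, but 4, 2 and 6 values with no call did (Ntrk2 and Cntfr, Ntrk2, and Gfra1, Lifr and Ret). With 1 array left out, 9 to 11 member probe sets were called between SMA vehicle and wildtype (5502 to 7937 of all probe sets). Between SMA ceftriaxone and SMA vehicle 7 to 8 were called (3729 to 6808). Between SMA ceftriaxone and wildtype 0 to 2 were called (164 without SMA ceftriaxone array 3, to 1436 without wildtype array 2, beside 572). A filter at the 60th percentile left 4 member probe sets, of which 2 were called in each main comparison, beside 49.6% and 39% of all probe sets. With no filter 15 of 24 were called between SMA vehicle and wildtype, beside 31.3% of all. Low-Xist arrays alone gave 4 member probe sets and 2176 of all probe sets, beside 11 and 6401. Between SMA ceftriaxone and wildtype, member probe sets called were 1 with no filter, 1 with no intensity trend and 3 with array weights. The shares of all probe sets called there were 2.02%, 3.85% and 13.5%. All probe sets called there were 236 with median centring, 1826 with array weights, 111 with only both groups in the fit, 344 with the replicate block and 80 with Xist as a covariate. The cause of these shifts was not tested. The replicate block left 11, 8 and 0 member probe sets called, beside 45.5%, 33.7% and 2.53% of all probe sets. Same-numbered arrays did not deviate together (correlations of -0.143 to 0.133), so the numbers were not taken as pairs, and 0, 1 and 1 of 4 arrays correlated best with their own number.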
